A study of Mus musculus with 8 samples.

Results

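The genes described here encode the proteins of the mitochondrial ribosome. They were chosen by symbol, as every gene whose name begins with Mrpl or Mrps followed by a number and at most a letter from a to c, a rule that uses no measured value. This gave 77 members of 24063 genes, 48 of the large subunit (Mrpl) and 29 of the small subunit (Mrps), lying on 17 chromosomes. RNA was sequenced from tubuloids, the tubules and spheroids that fragments of postnatal mouse kidney form in a Matrigel culture. The study also described undifferentiated prestructures in such cultures. All 8 cultures had the genotype Pkd2 fl/fl Pax8rtTA TetOCre mTmG, so the controls carried the floxed Pkd2 alleles, the transactivator, the Cre transgene and the reporter as well. Treatment with doxycycline (DOX, 4 libraries) or with the vehicle dimethyl sulfoxide (DMSO, 4 libraries) began on day 3, lasted 3 days, and RNA was taken after 7 days of culture. The labels gave the kidneys an age of postnatal day 7 to day 10. The methods of the study gave a younger range, which ended at day 7. Doxycycline binds the transactivator and switches on Cre, which removes part of Pkd2 and turns the membrane reporter from red to green. Because the Pax8 promoter drives the transactivator in renal epithelium, Cre is not switched on in cells outside this epithelium, and the effects of the drug, of Cre and of Pkd2 loss on the members cannot be told apart in this design.

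The mitochondrial ribosome translates the few mRNAs of mitochondrial DNA, all of which encode subunits of the respiratory chain and the ATP synthase. Its rRNAs are made inside the organelle, but all of its proteins are encoded in the nucleus, made in the cytosol and imported, so that their mRNAs can be read in poly-A selected RNA. Some of these proteins have a bacterial homologue and others were gained in mitochondria. Proximal and distal tubule cells are rich in mitochondria, which power ion transport. Tetracyclines such as doxycycline bind the small subunit of bacterial ribosomes and are known to slow mitochondrial translation as well. The comparison therefore asked whether mRNAs of the ribosome that the drug itself acts on differed after treatment. Ribosome activity and protein levels were not measured.

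The symbols do not match the structure in every case. Mrps18a and Mrps30 carry a small subunit name, but their products sit in the large subunit. The Mrps36 product is now placed in the 2-oxoglutarate dehydrogenase complex and not in the ribosome. By structure, 50 members belonged to the large and 26 to the small subunit. By the names used for the structure, 46 of these 76 genes are classed as shared with bacteria and 30 as specific to mitochondria. The 30 include Mrps18a and Mrps18b, although both are related to bacterial S18. Some ribosomal proteins have other symbols, such as Dap3 and Ptcd3, and are counted with the related genes further on.

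Promoter sequences (RefSeq, build GRCm38.p6, 250 bases before to 50 after each start) were found for 68 of the 77 members, in 74 windows. The window sequences were searched on both strands for 10 motifs. CCGGAAG, the core of the ETS family motif, lay in 25 member windows (33.8%) and in 8.86% of all 32851 windows. The motif of nuclear respiratory factor 1 (NRF1; GCGC, then A, any base and GCGC), a known activator of nuclear genes for mitochondrial proteins, lay in 13 member windows (17.6%) and in 4.60% of all windows. Windows of expressed genes are the closer comparison, and among 10246 windows of genes with a mean of at least 5 TPM the shares were 18.1% for the ETS motif and 10.2% for the NRF1 motif. At least 1 of these motifs lay in 45.9% of member windows, 12.6% of all windows and 26.2% of windows of expressed genes. These shares are descriptions, and a match is not a bound site.

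Of the other motifs, AAGATGGCG (YY1) was in 10.8% of member windows, 1.40% of all windows and 3.18% of windows of expressed genes. The ZNF143 motif (ACTACAA, any base, then TCC) was in 5.41%, 1.01% and 2.30% in the same order. GGGCGG (the GC box) was in 52.7%, 35.7% and 63.7%, and CACGTG (the E-box) was in 9.46%, 7.15% and 10.2%. CCAAT was in 40.5%, 37.4% and 37.5%, and TATAAA (the TATA box) was in 6.76%, 13.6% and 7.09%. TGACGTCA (the cAMP response element) was in 2.70%, 1.79% and 3.16%, and TGAGTCA (AP-1) was in 2.70%, 5.20% and 3.82%. Against expressed genes, the member windows thus held the ETS, NRF1, YY1 and ZNF143 letters more often, and the other 6 motifs at shares within a few percent or lower. Windows of members had a median GC content of 58.5%, those of all genes 52.7% and those of expressed genes 61.0%.

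The stretches below show the ETS letters (in capitals, in either orientation) upstream of 4 members whose values are described further on. Mrps22 was among the members with the smallest p, Mrps27 was very low in both libraries with few detected genes, Mrps18a has the misleading symbol, and Mrpl52 had the next to highest level. Each is written 5′ to 3′ on the strand of the gene and lies upstream of the start site on which the window was built, leaving out bases inside any annotated exon or any gene's RefSeq extent. For 48 of the 68 members a window started at the RefSeq start of the gene and for 20 only elsewhere, and distances are counted from the start used for the window.
Mrps22, chr9:98601680-98601799, minus strand: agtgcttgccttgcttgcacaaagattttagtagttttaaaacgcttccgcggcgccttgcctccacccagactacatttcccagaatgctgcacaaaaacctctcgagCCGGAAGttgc
Mrps27, chr13:99344706-99344766, plus strand: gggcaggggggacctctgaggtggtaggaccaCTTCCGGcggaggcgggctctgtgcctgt
Mrps18a, chr17:46110866-46110985, plus strand: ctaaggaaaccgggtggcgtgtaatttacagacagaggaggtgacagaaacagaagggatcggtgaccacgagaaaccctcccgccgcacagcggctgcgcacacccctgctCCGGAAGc
Mrpl52, chr14:54426789-54426908, plus strand: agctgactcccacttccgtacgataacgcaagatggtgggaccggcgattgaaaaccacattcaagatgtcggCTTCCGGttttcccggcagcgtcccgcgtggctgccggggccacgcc

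The ETS letters ended 5 bases before the start site of Mrps22, 20 before that of Mrps18a, 41 before that of Mrpl52 and 42 before that of Mrps27. The next stretches show the NRF1 letters upstream of Mrpl12, which had a library far from the rest, and of Mrpl17, the member with the longest listed transcript. Here the letters ended 72 and 40 bases before the start site.
Mrpl12, chr11:120484493-120484612, plus strand: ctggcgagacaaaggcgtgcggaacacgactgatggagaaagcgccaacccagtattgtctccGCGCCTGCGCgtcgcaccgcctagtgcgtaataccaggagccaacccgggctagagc
Mrpl17, chr7:105811100-105811219, minus strand: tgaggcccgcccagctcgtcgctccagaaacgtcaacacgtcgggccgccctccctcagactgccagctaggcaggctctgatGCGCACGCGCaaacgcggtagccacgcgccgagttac

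Many of these promoters face another gene, though no share over all genes was computed for this or for the exon overlaps below. In the GENCODE annotation, 33 members had a protein-coding gene on the other strand that started within 1000 bases of their own start. Mrps27 faced Ptcd2 at 81 bases, Mrpl54 faced Apba3 at 26 bases, Mrpl32 faced Psma2 at 75 bases, and Mrps12 faced Sars2, the mitochondrial seryl-tRNA synthetase, at 172 bases. Mrpl46 and Mrps11, a large and a small subunit gene, overlapped head to head by 173 exon bases. In all, exons of 32 members overlapped exons of another gene, 27 of them on the opposite strand. The library kit does not mark the strand, so reads in such bases cannot be assigned to either gene. The longest overlaps were those of Mrps25 with Nr2c2 (4590 bases), Mrpl19 with Gcfc2 (1962 bases) and Mrps34 with Mapk8ip3 (1309 bases). Mrps6 shared 159 bases with Slc5a3 on the same strand. Mrpl18 shared 141 bases with Tcp1, a very abundant chaperonin mRNA in most cells.

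Libraries held 63922677 to 102716313 summed transcript counts. DMSO 20 and DOX 19 stood apart with counts for 13243 and 13599 genes, against 17054 to 17903 in the other 6 libraries, so values that rest on them are also given without them. Pkd2 itself had a log2 fold change of -0.31 with DOX (SE 0.215, DESeq2 adjusted p = 0.999) and its groups overlapped. Without DMSO 20 the estimate was -0.20. These are mRNA counts over the whole gene, whereas the study reported a fall in the Pkd2 protein after DOX, with some protein still detected. Tubule epithelium markers (Cdh1, Epcam, Krt8, Krt18, Cdh16 and Pax8, 6 of 6 detected) summed to 453 to 2041 TPM in DMSO and 586 to 1356 TPM in DOX libraries, and principal cell markers (4 of 4 detected) to 12.1 to 390 TPM in DMSO and 36.9 to 86.0 TPM in DOX libraries. Of the latter, Fxyd4 ran from 4.44 to 306 TPM and Gata3 from 7.70 to 40.0 TPM, Avpr2 was at 0 in DMSO 15 and DMSO 20 and at 0.470 to 43.7 TPM elsewhere, and Aqp2, the defining water channel, was at or near 0 in all 8. Stromal markers (7 of 7 detected) summed to 260 to 2615 TPM in DMSO and 490 to 836 TPM in DOX libraries. DMSO 15 had both the highest stromal (2615 TPM) and the lowest tubule epithelium sum (453 TPM). Endothelial markers reached at most 1.15 TPM, macrophage markers at most 28.6 TPM. Adrenal cortex markers summed to 47.9 TPM in DMSO 20, all of it Cyp11a1, and to 0.951 TPM in DOX 19 and 1.67 to 14.3 TPM in the other 6 libraries. The 4 markers of dividing cells summed to 58.3 to 125 TPM in DMSO and 37.1 to 130 TPM in DOX libraries. The part of this cell mixture in the members' levels was not tested. In such bulk RNA, fewer cells with many mitochondria and less mRNA per cell cannot be told apart.

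All 77 members were expressed. Each had counts in each library (at least 335), and each had a mean level above the median of all genes with counts (6.55 TPM). The deposited TPM (transcripts scaled to a fixed sum per library) is the scale on which levels of different genes are compared here, as it divides by transcript length. Members took 0.315% to 0.459% of the counts of a library. Their summed level was 7653 TPM in DMSO 15, 6747 in DMSO 20, 6740 in DMSO 3 and 8860 in DMSO 5. It was 6803 TPM in DOX 9, 8473 in DOX 21, 6528 in DOX 19 and 7406 in DOX 12. Both groups thus spanned nearly the same range, with a mean of 7500 ± 1003 TPM in the DMSO and 7302 ± 862 TPM in the DOX libraries (SD, n = 4 each).

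Neither subunit differed between the groups by more than its spread. Large subunit genes summed to 4731 ± 600 TPM in the DMSO and 4557 ± 575 TPM in the DOX libraries, and small subunit genes to 2769 ± 466 TPM and 2746 ± 335 TPM (SD, n = 4 each). Without DMSO 20 and DOX 19 the means were 4837 ± 688 and 4670 ± 647 TPM for the large and 2914 ± 446 and 2891 ± 205 TPM for the small subunit (SD, n = 3 each). With all listed transcripts of a gene summed, the ratio of the mean level of Mrpl genes to that of Mrps genes was 1.14, 1.14, 0.929 and 0.957 in DMSO 15, 20, 3 and 5, and 0.930, 1.05, 1.10 and 0.937 in DOX 9, 21, 19 and 12. It averaged 1.04 ± 0.114 in the DMSO and 1.01 ± 0.0859 in the DOX libraries (SD, n = 4 each), and 1.01 ± 0.113 and 0.973 ± 0.0692 without DMSO 20 and DOX 19 (SD, n = 3 each). Over all 8 libraries its mean was 1.02, but 1.20 with a single transcript per gene, so the relative level of the subunits depended on how transcripts were summed. High and low ratios occurred in both groups, and the ratio varied more between libraries of a group than between the groups.

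**Figure D1:**
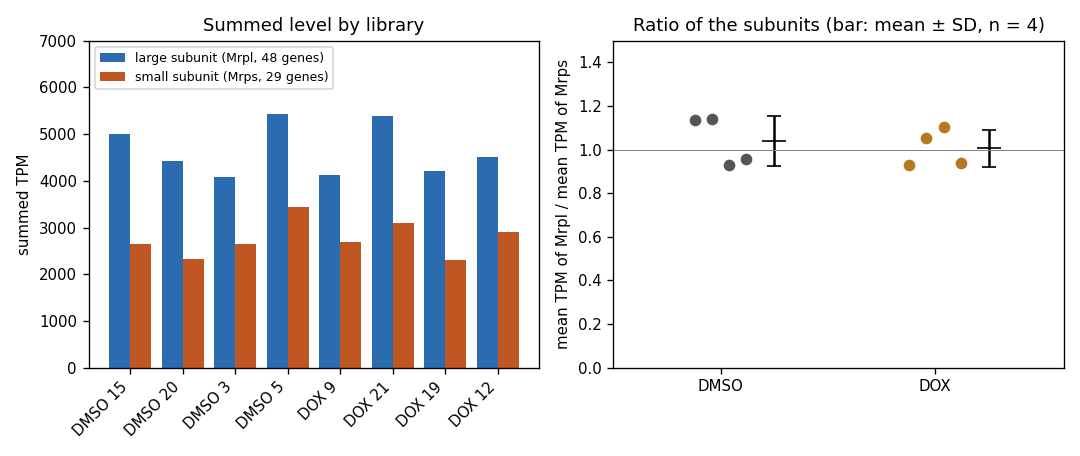
Left, summed TPM of the 48 large and 29 small subunit genes in each of the 8 libraries (bars). Right, ratio of the mean TPM of Mrpl to that of Mrps genes in each library (points), with mean and SD of each group (n = 4); DMSO points lie between 0.929 and 1.14 and DOX points between 0.930 and 1.10, around the grey line at 1.

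The members themselves were far from equal in mRNA level. Mean levels over the 8 libraries ran from 11.4 TPM (Mrps25) to 420 TPM (Mrpl33), a 36.9-fold range. The median was 62.2 TPM for large and 67.2 TPM for small subunit genes. Members shared with bacteria had a median of 79.2 TPM and those specific to mitochondria a median of 51.1 TPM. Highest were Mrpl33 and Mrpl52, both encoding very small proteins, and Mrps6 and Mrps23. Mrpl33, a homologue of bacterial L33, had 633, 515, 292 and 448 TPM in DMSO 15, 20, 3 and 5, and 259, 538, 399 and 276 TPM in DOX 9, 21, 19 and 12. It was high in DMSO 15 and DOX 21 and low in DMSO 3, DOX 9 and DOX 12, so that its groups overlapped widely.

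Mrpl52, which has no bacterial homologue, had a mean of 324 ± 58.3 TPM, and Mrps6, a homologue of bacterial S6, had a mean of 297 ± 59.7 TPM (SD, n = 8 each). Both ranges held the other's mean, and the order of these genes was not distinct beyond their spread. Mrps23 had a mean of 289 TPM when its 6 listed transcripts were summed, but 41.8 TPM with only its most counted transcript. Whether reads shared by isoforms were counted for each is not given in the sources used here and was not tested, so the level of the 8 members with several transcripts is uncertain. With the most counted transcript alone, Mrps10 fell from 213 to 68.7 TPM, Mrpl15 from 122 to 28.6 TPM and Mrpl1 from 58.0 to 21.9 TPM. Of these 8 genes, 5 carry an Mrps and 3 an Mrpl symbol.

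The lowest members were Mrps25 (11.4 ± 2.85 TPM), Mrpl19 (12.8 ± 2.03 TPM), Mrpl35 (16.0 ± 1.90 TPM) and Mrps31 (20.0 ± 3.98 TPM; SD, n = 8 each). Mrpl19 and Mrpl35 encode homologues of bacterial L19 and L35, and Mrps25 and Mrps31 encode proteins without a bacterial homologue. Mrps25, Mrpl19 and Mrpl35 have long listed transcripts, and over the 77 members the mean TPM fell with transcript length (407 to 6712 bases, Spearman's rho -0.70 across genes, which share the same 8 libraries). With a single transcript per gene rho was -0.79. Dividing by length enters TPM itself, so this order is in part set by the scale. Mrps25 and Mrpl19 are also the members with the longest exon overlaps given above.

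**Figure D2:**
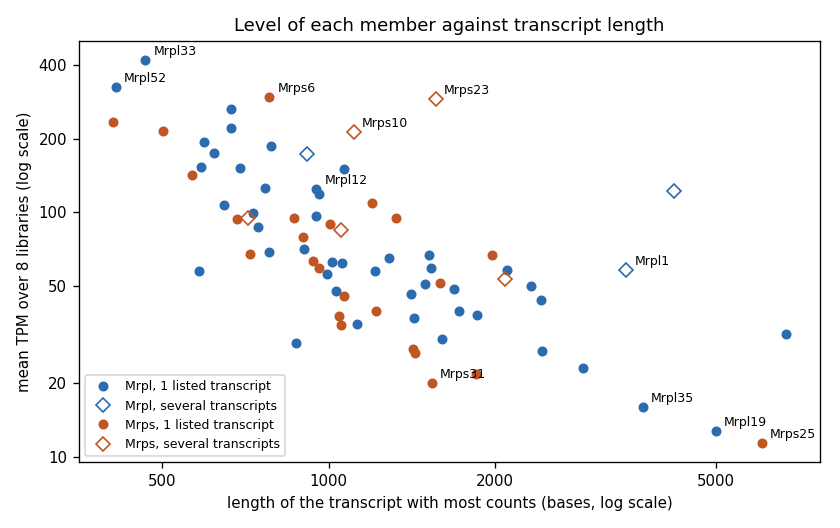
Mean TPM over 8 libraries against the length of the most counted transcript of each member, both on log scales, for Mrpl (blue) and Mrps (orange) genes; open diamonds mark the 8 genes with several listed transcripts. Levels run from 11.4 TPM (Mrps25) to 420 TPM (Mrpl33) and decrease with length in both subunits.

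Between DOX and DMSO, DESeq2 called 0 of the 77 members (adjusted p no larger than 0.05 together with a 1.5-fold or larger change), against 25 of 17011 genes (0.147%). With the limit at 0.1 and no minimum fold it found 0 members, against 0.253% of genes, and the smallest adjusted p of a member was 0.83. Before adjustment, p was under 0.05 for 3 members (3.90%), against 4.67% of all genes tested. All 3 were lower with DOX, where 2.47% of genes were lower and 2.2% higher at this p. The edgeR quasi-likelihood test also called 0 members (0% of all genes), with 1 member at an unadjusted p under 0.05, against 3.06% of genes.

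The fitted changes were small. Of the members, 27 were fitted higher and 50 lower with DOX, with a median log2 fold change of -0.05, against -0.07 for all genes tested and -0.00048 for 7979 genes in the same range of mean counts. The median was -0.04 for the 48 large and -0.08 for the 29 small subunit genes. With 1 library left out it ran from -0.14 (without DMSO 20) to 0.019 (without DOX 19 or DOX 12) for the large and from -0.21 (without DMSO 20) to 0.025 (without DOX 19) for the small subunit genes, so neither median had a stable sign. Without both DMSO 20 and DOX 19 the median was -0.078 for all members, -0.081 for the large and -0.078 for the small subunit genes. A fitted change past 1.5-fold in either direction was seen for 1 member, Mrpl1, against 28.2% of genes with a mean of at least 10 normalised counts and 13.5% of genes in the same count range. For 28 members (36.4%) the whole 95% interval of the change lay within 1.5-fold in both directions, 18 of them large and 10 small subunit genes, against 9.28% and 15.2% of the same sets of genes. For the other 49 members these libraries could not bound the change within 1.5-fold.

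**Figure D3:**
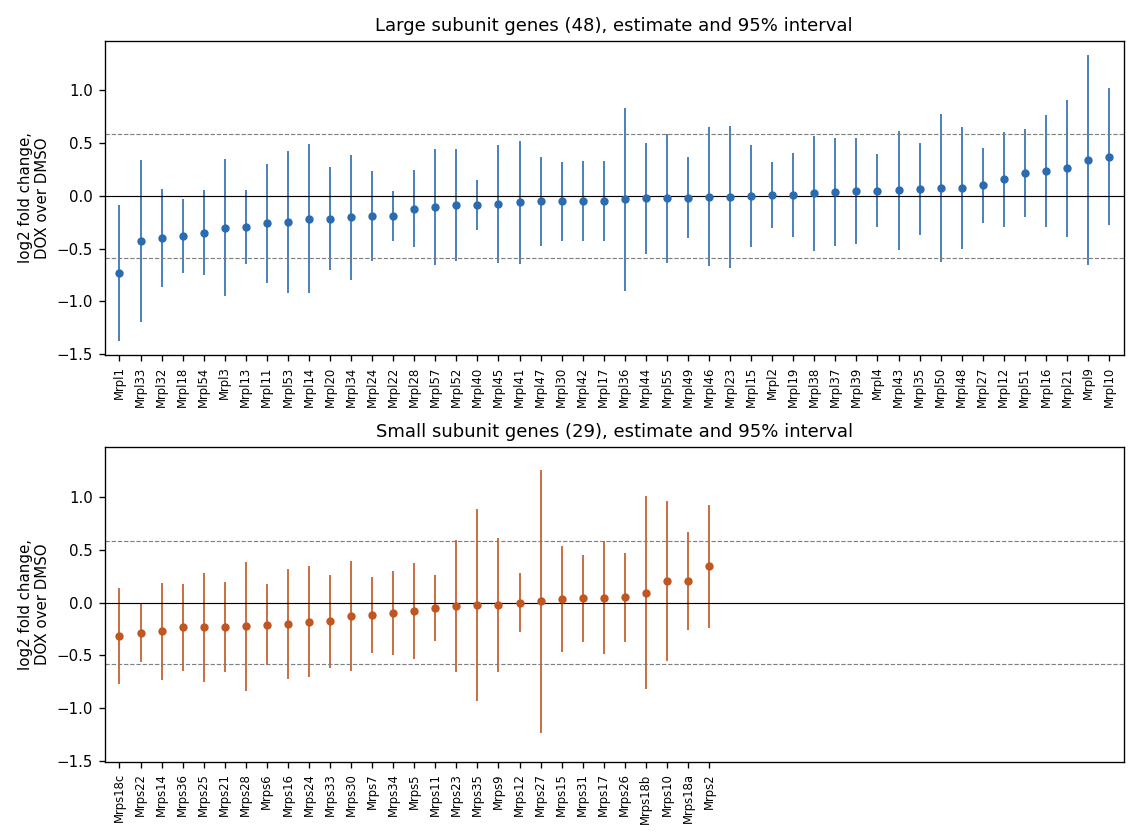
Log2 fold change (DOX over DMSO) of the 48 large (top) and 29 small subunit genes (bottom) in rising order, with the DESeq2 estimate (points) and its 95% interval (lines); dashed lines mark 1.5-fold. Only the estimate for Mrpl1 (-0.73) passes a dashed line, and the widest interval is that of Mrps27.

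Mrpl1 encodes the protein of the L1 stalk, beside the site where spent tRNA leaves. Its normalised counts were 5453, 10684, 5458 and 5528 in DMSO 15, 20, 3 and 5, and 3981, 5482, 3605 and 3302 in DOX 9, 21, 19 and 12. DMSO 20 was nearly double each other DMSO library, and DOX 21 lay above 2 of the DMSO libraries. The estimate was -0.73 on the log2 scale (SE 0.327; adjusted p = 0.83 in DESeq2), -0.42 without DMSO 20 and -0.34 without both DMSO 20 and DOX 19, so the difference did not pass the test.

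Mrpl18 encodes the homologue of bacterial L18, a protein of the central protuberance. Its normalised counts were 5201, 5143, 5437 and 5363 in DMSO 15, 20, 3 and 5, and 3123, 4826, 3998 and 4334 in DOX 9, 21, 19 and 12. All 4 DOX libraries lay below all 4 DMSO libraries, and they were far more spread (SD 717 against 137). The estimate of -0.38 on the log2 scale (SE 0.178, DESeq2 adjusted p = 0.873) did not pass the test.

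Mrps22, a small subunit protein without a bacterial homologue whose loss causes mitochondrial disease in humans, had 2030, 1955, 2323 and 2380 normalised counts in DMSO 15, 20, 3 and 5. It had 1916, 1792, 1613 and 1802 in DOX 9, 21, 19 and 12. The groups did not overlap, but DMSO 20 (1955) and DOX 9 (1916) lay close together. The estimate was -0.29 on the log2 scale (SE 0.139, DESeq2 adjusted p = 0.893). Mrpl18 and Mrps22 were the 2 members whose DOX libraries all lay below the DMSO libraries (2.60%), against 1.16% of genes and 1.1% in the same count range. For 0 members did they all lie above, against 1.76% and 2.56%.

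Mrpl32 and Mrpl54 came next among the lower members. Mrpl32, which needs cleavage by a mitochondrial inner membrane protease before it can join the ribosome, had 4838, 4190, 4233 and 4929 normalised counts in DMSO and 3167, 4827, 3093 and 2723 in DOX libraries (in the order used above). DOX 21 lay among the DMSO libraries and the other 3 DOX libraries below them. Its log2 estimate was -0.40 (SE 0.236, DESeq2 adjusted p = 0.999). Without DOX 21 it was -0.60 and the adjusted p was 0.0357, and Mrpl32 was then called. Mrpl54, a protein specific to mitochondria, had 4725, 3169, 4177 and 4514 in DMSO and 2922, 3895, 2909 and 3299 in DOX libraries, with DMSO 20 inside the DOX range (log2 fold change -0.35, adjusted p = 0.999).

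Of the members fitted higher with DOX, Mrps2, Mrpl10, Mrpl51, Mrpl16 and Mrps18a had the smallest p. Mrps2 encodes the homologue of bacterial S2. It had 3984, 2143, 4920 and 4762 normalised counts in DMSO and 5414, 4882, 5103 and 4653 in DOX libraries, so DMSO 20 alone lay far below the rest. Its log2 estimate was 0.34 (SE 0.298, DESeq2 adjusted p = 0.999), and without DMSO 20 it was 0.14, as against 0.15 without DOX 19 as well. Mrpl10, which holds the stalk proteins on the large subunit, had 3639, 1516, 3844 and 2761 in DMSO and 4433, 3779, 3318 and 3650 in DOX libraries. DMSO 20 again was lowest. The estimate was 0.37 on the log2 scale (SE 0.331, DESeq2 adjusted p = 0.999), 0.15 without that library and 0.23 without DOX 19 as well.

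Mrpl51 (log2 fold change 0.21), Mrpl16 (0.23) and Mrps18a (0.20) overlapped between the groups as well. Mrpl51 ranged from 3059 to 4745 normalised counts with DMSO and from 3706 to 5300 with DOX. Mrpl16, homologue of a bacterial protein near the peptidyl transferase centre, ranged from 894 to 1825 with DMSO and from 1620 to 1951 with DOX. Its lowest value was again that of DMSO 20. Without that library the estimates were 0.051 for Mrpl16, 0.11 for Mrpl51 and 0.12 for Mrps18a, and without both DMSO 20 and DOX 19 they were 0.10, 0.047 and 0.26. Mrps18a, highest in DOX 21, had an estimate of 0.065 without it and of 0.33 without DOX 19. Mrpl51 had 0.33 without DMSO 15 and 0.14 without DOX 19.

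The proteins of the stalk and its base, which recruit the translation factors, are encoded by Mrpl10, Mrpl11 and Mrpl12. Mrpl12 forms the stalk itself. It had 5061, 3254, 4988 and 5187 normalised counts in DMSO 15, 20, 3 and 5 and 4793, 4957, 6321 and 4532 in DOX 9, 21, 19 and 12. DMSO 20 was the lowest and DOX 19 the highest library, so the 2 libraries with few detected genes lay at opposite ends for this gene. The log2 fold change was 0.16 with all libraries and -0.074 without both of them, 0.018 without DMSO 20 alone and 0.050 without DOX 19 alone. Mrpl11 had 3140, 1989, 3339 and 3457 in DMSO and 2366, 3320, 1848 and 2413 in DOX libraries (log2 fold change -0.26). For Mrpl11 both of these libraries were low, each the lowest of its group, and the estimate was -0.41 without DMSO 20, -0.14 without DOX 19 and -0.43 without DOX 21. None of the 3 differences passed the test.

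Mrpl23 and Mrpl45 encode proteins at the exit of the nascent chain, and Mrpl45 holds the ribosome to the inner membrane. It had 2700, 3537, 2698 and 2085 normalised counts in DMSO and 3398, 2141, 1929 and 2995 in DOX libraries, with overlapping groups (log2 fold change -0.07, SE 0.285). Mrpl23 had 884 to 1990 normalised counts over both groups (log2 fold change -0.01) and Mrpl44, a relative of the RNase III enzymes, had 1560 to 2743 (log2 fold change -0.02). Mrpl17, another protein around the exit with the longest listed transcript, had 9989, 7462, 9639 and 8732 in DMSO and 8573, 10677, 7188 and 8221 in DOX libraries (log2 fold change -0.05), and DMSO 20 and DOX 19 were each the lowest of their group. It was added after its values were seen. The estimates for Mrpl23, Mrpl44 and Mrpl45 lay near 0, with 95% intervals reaching past 1.5-fold in at least 1 direction for Mrpl23 and Mrpl45.

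In the small subunit, Mrps12 encodes a protein of the decoding centre, the region of the small subunit where tetracyclines bind in bacteria. It was among the steadiest members, with 2744, 2338, 2930 and 2559 normalised counts in DMSO and 2543, 2701, 2925 and 2413 in DOX libraries. The log2 fold change was 0.00096, with a 95% interval from -0.28 to 0.28. Mrps7, an early binding protein of the small subunit head, had 5056, 6854, 4488 and 5010 in DMSO and 4920, 4932, 5223 and 4691 in DOX libraries (log2 fold change -0.11, 95% interval -0.47 to 0.24). DMSO 20 alone was high. For both genes a change of 1.5-fold lay outside the interval.

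The 3 genes related to bacterial S18 did not share a pattern. Mrps18c, which takes the place of the bacterial protein, had 4888, 4744, 5183 and 5006 normalised counts in DMSO and 3290, 4967, 4763 and 2915 in DOX libraries (log2 fold change -0.32, adjusted p = 0.999), and without DOX 12 the estimate was -0.19. Its DMSO values were tight, and 2 DOX libraries lay among them and 2 far below. Mrps18b had 1995, 721, 1688 and 1443 in DMSO and 2530, 1506, 758 and 1453 in DOX libraries (log2 fold change 0.10), low in DMSO 20 and in DOX 19. Mrps18a, of the large subunit, had 3067, 2525, 3148 and 3646 in DMSO and 3603, 4558, 2626 and 3465 in DOX libraries, also with these 2 libraries lowest. Mrps30, likewise of the large subunit, had 2044 to 4077 normalised counts over both groups (log2 fold change -0.13), and Mrps36, of the dehydrogenase complex, had 2208 to 3732 (log2 fold change -0.23, and -0.12 without DMSO 15).

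**Figure D4:**
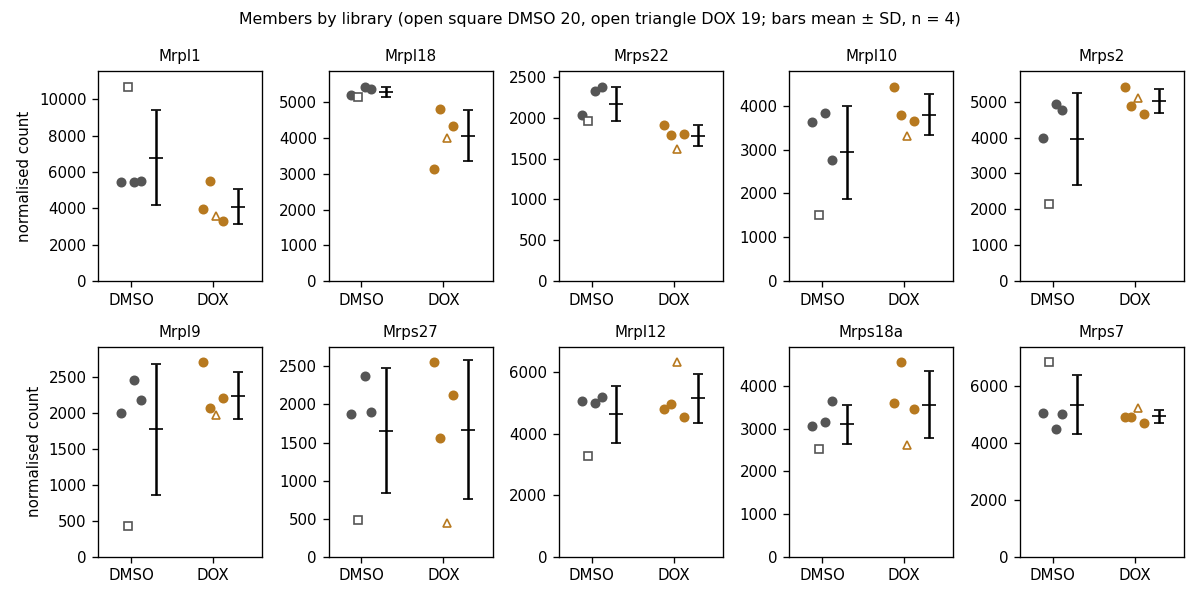
Normalised counts of 10 members in the 8 libraries, from 0 upward, with mean and SD (n = 4) beside each group; the open square is DMSO 20 and the open triangle DOX 19. Mrpl18 and Mrps22 are the members without overlap between groups, DMSO 20 is far above the rest for Mrpl1 and far below for Mrpl9, and both marked libraries are low for Mrps27.

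Members varied less within a group than other genes of like abundance. The median within-group SD of log2 normalised counts was 0.310 for members and 0.431 for genes in the same count range. Without DMSO 20 and DOX 19 it was 0.192 and 0.300. The steadiest members were Mrpl40 (0.097), Mrpl22 (0.0987), Mrps22 (0.123) and Mrps12 (0.130). Mrpl22, which lines the exit tunnel, had 2509 to 3024 normalised counts in 7 libraries and 2233 in DOX 12. The least steady were Mrps27 (1.10), Mrpl9 (0.852), Mrps35 (0.720) and Mrpl36 (0.682). These 8 genes were chosen after their values were seen.

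These 4 least steady members were low in DMSO 20, and their SD was 0.158 to 0.289 without DMSO 20 and DOX 19. The SD of Mrpl33 (0.530), Mrpl14 (0.475) and Mrpl53 (0.443) was higher without these libraries, at 0.629, 0.508 and 0.513, and these genes too were chosen after their values were seen. DMSO 20 was the lowest of the 8 libraries for 32 members, DOX 19 for 20 and DOX 12 for 14. In DMSO 20, 11 members lay more than 2-fold below their median over the libraries (14.3%, against 12.5% of genes in the same count range), and in DOX 19 2 members did (2.60%, against 9.41%). In the other 6 libraries 0 members did, against 0.627% to 4.36% of genes. Mrps27, a small subunit protein specific to mitochondria, was low in both, with 475 normalised counts in DMSO 20 and 440 in DOX 19 against 1558 to 2557 in the other libraries. Mrpl9, homologue of bacterial L9, had 429 in DMSO 20 and 1967 to 2706 elsewhere. Mrps35 had 730 in DMSO 20 and 1112 in DOX 19, against 2069 to 2655 in the rest.

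The other members more than 2-fold below their median in DMSO 20 were Mrpl10, Mrpl21, Mrpl36, Mrpl46, Mrpl50, Mrps2, Mrps10 and Mrps18b, and Mrpl3 was so in DOX 19. Large and small subunit genes were both among them. Mrpl36, a very short protein in bacteria and mitochondria alike, had 940 normalised counts in DMSO 20 and 2111 to 3816 elsewhere. Of the head-to-head pair, Mrpl46 had 990 in DMSO 20 and 1837 to 2627 in the other libraries, whereas Mrps11 had 1461 in DMSO 20 and 1459 to 1860 in the others. In DMSO 20 these overlapping genes thus differed, with Mrpl46 far below the other libraries and Mrps11 just inside their range.

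Across the members as a whole, the libraries differed more than the groups. The median log2 difference of members from their own median over the libraries was -0.28 in DMSO 20, -0.21 in DOX 19 and -0.14 in DOX 12 and 0.10 in DOX 21. For genes in the same count range the size factors hold this median near 0 in each library, so it does not show that single genes were steady. DMSO 20 and DOX 19 both lay below all other 6 libraries for 26 of the 77 members (33.8%), against 11.6% of genes in this range. Transcript length moved with part of this. Among the 38 members with a transcript shorter than 1053 bases the median was 0.20 in DMSO 15, 0.15 in DOX 21, -0.22 in DMSO 20 and -0.25 in DOX 12. Among the 618 genes of the same count range that were as short, it was 0.24, 0.19, -0.21 and -0.28 in the same libraries. Short members thus followed other short transcripts from library to library, in both groups.

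Longer members had another pattern. Among the 39 members of 1053 bases or more the median was -0.35 in DMSO 20 and -0.33 in DOX 19, and between -0.06 and 0.08 in the other 6 libraries. Among 7361 genes of the same length and count range it was 0.01 in both DMSO 20 and DOX 19, again near the 0 that the size factors set for such genes as a whole. Low values in both libraries were also seen for some genes that work with this ribosome. The part of RNA quality, cell mixture or amplification in this was not tested. The length pattern and the split at the median length were chosen after the values were seen.

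**Figure D5:**
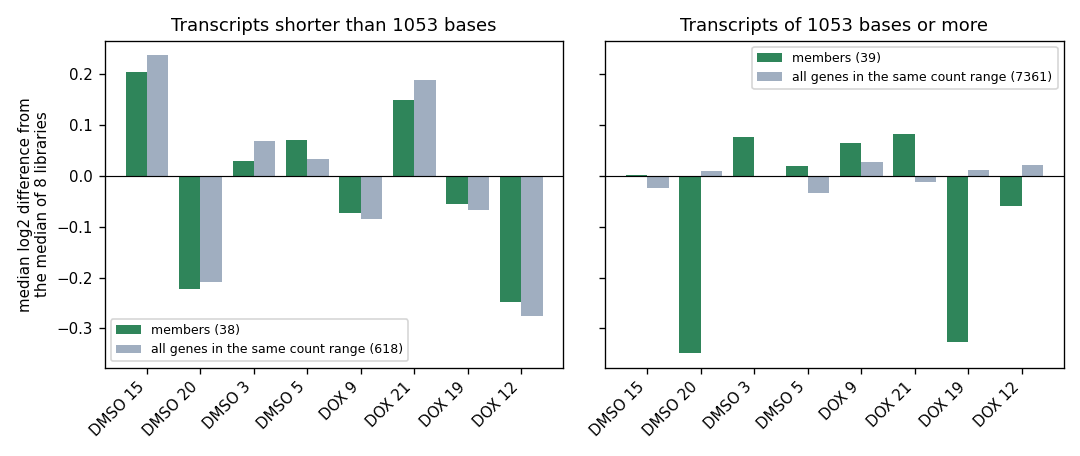
Median log2 difference from the median of the 8 libraries for members (green) and for all genes in the same count range (grey), for transcripts shorter than 1053 bases (left) and of 1053 bases or more (right). Short members follow other short transcripts in each library, whereas long members are low in DMSO 20 (-0.35) and DOX 19 (-0.33), where the median of other long transcripts, held near 0 by the size factors, is 0.01.

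Genes that work with this ribosome were listed in 4 groups of 52 genes in all, and DESeq2 called 0 of them, as did edgeR. Before adjustment, p was under 0.05 for 2 of 52 (3.85%), both higher with DOX and both also under 0.05 in edgeR, and the median log2 fold change of the 52 was 0.02. The 6 ribosomal proteins under other symbols (Dap3, Ptcd3, Chchd1, Aurkaip1, Gadd45gip1 and Ict1) were fitted higher in 3 cases and lower in 3, with 0 at this p. Chchd1 had the largest estimate (log2 fold change -0.48, adjusted p = 0.999), with 4252 to 7444 normalised counts in DMSO and 2729 to 5556 in DOX libraries. Among 13 translation factors, 0 passed. Mtif2, the initiation factor that brings the first tRNA, came closest, with 7622, 12628, 9512 and 12941 normalised counts in DMSO and 7377, 8836, 7423 and 7932 in DOX libraries (log2 fold change -0.44, adjusted p = 0.967). Tufm, the elongation factor, had a log2 fold change of 0.05. Among the 4 genes of mitochondrial transcription and mRNA handling (Polrmt, Tfam, Lrpprc and Slirp), 0 passed, with log2 fold changes from -0.23 to 0.09. DMSO 20 and DOX 19 both lay below the other 6 libraries for 11 of the 52 related genes (21.2%). The share was 33.8% for members and 11.6% for genes in the members' count range, which the related genes did not all share. The median log2 difference of the related genes was -0.12 in each of these 2 libraries and -0.13 in DMSO 15. Among the 11 genes, Tfam, which packages mitochondrial DNA and starts its transcription, had 972 normalised counts in DMSO 20 and 1506 in DOX 19, against 2840 to 4041 elsewhere. Mrrf, the ribosome recycling factor, had 638 and 835 in these libraries, against 1642 to 2376 elsewhere. Both were chosen after their values were seen.

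Of 29 assembly and rRNA factors, both genes at an unadjusted p under 0.05 had all DOX libraries above all DMSO libraries (6.90%), against 1.76% of genes and 2.56% of genes in the count range of the members. Over all 52 related genes these were the only 2 so placed (3.85%), and the lists were not matched to that count range. Nsun4, the methyltransferase that acts on the small subunit rRNA and takes part in joining the subunits, had 1093, 1169, 1822 and 1433 normalised counts in DMSO 15, 20, 3 and 5. It had 2067, 2656, 1979 and 2231 in DOX 9, 21, 19 and 12. The estimate of 0.70 on the log2 scale had an SE of 0.238 and a DESeq2 adjusted p of 0.424. Its partner protein Mterf4 ranged from 1100 to 2211 with DMSO and from 1171 to 2120 with DOX (log2 fold change 0.05). Dhx30, an RNA helicase needed to assemble the large subunit, had 12998, 10505, 12071 and 13429 in DMSO and 15364, 15996, 18737 and 15297 in DOX libraries (log2 fold change 0.42, SE 0.149, DESeq2 adjusted p = 0.504). Neither passed the adjusted test, and 4.67% of all genes were at an unadjusted p under 0.05.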

How the data were processed

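The authors selected poly-A RNA for SMART-Seq v4 libraries, used STAR to align the read pairs and counted reads per RefSeq transcript on mm10 (featureCounts is named in the submitters' processing notes); versions and settings are not given in the sources used here. The deposited counts are whole reads per transcript. The deposited FPKM is that count divided by transcript length and library total, and was used only to recover transcript lengths. The deposited TPM was obtained by the authors by scaling FPKM to the same sum in each library. Counts and TPM were summed by gene symbol. The members and lists were chosen with earlier results of these data known. Libraries were grouped by title. The study gives 4 cultures per group and 2 flow cell lanes with 4 samples each; how libraries fell on the lanes was not used here, and no source used here ties a culture to an animal, so p-values measure the spread between these libraries.

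DOX was compared with DMSO over all genes by the Wald test of DESeq2 1.42.0 (R 4.3.3; median-of-ratios size factors, independent filtering at alpha 0.1, Benjamini-Hochberg adjustment), which the study's methods also name, with the quasi-likelihood test of edgeR 4.0.16 beside it. Intervals are 1.96 SE. By rule, members named singly were the 5 higher and 5 lower with the smallest p, plus the 4 highest and 4 lowest by TPM. The rule also took 12 chosen for their role, and any called. Other members named singly lie outside this rule and were named with their values known, whether or not this is said beside them. The alternatives were edgeR, TMM size factors, a minimum of 10 counts in each library, a single transcript per gene, low gene detection as a covariate, DMSO 20 and DOX 19 both left out, and each library left out in turn. Summed TPM, ratios and spreads without DMSO 20 and DOX 19, and counts of members far from their median or lowest in both of these libraries, were added after the data were seen. Log2 deviations between libraries used a pseudocount of 1. Depth was at least 335 counts per member and library, and its part in the spread between libraries was not tested.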

Additional observations from a re-analysis of the deposited data

Results flagged for a closer look

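For each gene named by rule, for both subunit sums and for their ratio, Dixon's test asked whether the highest or lowest of the 4 libraries of a group lay far from the others, as the gap to the next library divided by the whole range. It picked out 4 of 66 groups, and chance alone picks out about 1 in 20 (here 3.3).

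Mrpl1 had a log2 normalised count of 13.38 in DMSO 20, against 12.41 to 12.43 in the other DMSO libraries (gap 0.980 of the range). Mrpl12 had 11.67 in DMSO 20, against 12.28 to 12.34 (gap 0.916). Mrps25 had 10.71 in DOX 19, against 11.44 to 11.56 (gap 0.867); its log2 fold change was -0.23, and -0.064 without DOX 19. Mrpl52 had 12.78 in DMSO 15, against 12.34 to 12.40 (gap 0.854). Thus 3 of the 4 values came from the libraries with few detected genes, and in these it was higher for Mrpl1 and lower for Mrpl12 and Mrps25.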

How the results depend on the processing

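DESeq2 called 0 members under each alternative except without DOX 21, where it called 1, Mrpl32 (log2 fold change -0.60, adjusted p 0.0357); over the fits that left out a library the calls ranged from 0 to 1. Members at an unadjusted p under 0.05 numbered 3 with all libraries, 1 in edgeR, 1 with at least 10 counts in each library, 0 without both DMSO 20 and DOX 19, and 0 to 5 with a library left out (5 without DOX 21, 0 without DOX 19 or DOX 12). The median log2 fold change of the members ranged from -0.15 (without DMSO 20) to 0.02 (without DOX 19). The mean ratio of large to small subunit levels was 1.20 with a single transcript per gene. This setting changes the level of only the 8 members with several transcripts. Among them were Mrps23 (289 to 41.8 TPM), Mrps10 (213 to 68.7 TPM) and Mrpl15 (122 to 28.6 TPM). Whether reads shared by isoforms were counted for each was not tested.

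Of 420 alternative values of the 30 genes named by rule, 380 kept their direction and side of the threshold, 1 was newly called (Mrpl32) and 39 turned direction, in 13 genes whose log2 fold change was within 0.16 of 0. Direction turned for Mrps23 with low detection as a covariate (0.0064) and for Mrps12 with at least 10 counts (-0.0028). Without both DMSO 20 and DOX 19 it turned for Mrps12 (-0.086), Mrps7 (0.018), Mrps30 (0.11), Mrpl12 (-0.074), Mrpl23 (0.039) and Mrpl45 (0.21). With a library left out, the log2 fold change ranged from -0.28 to 0.049 for Mrpl52, -0.21 to 0.11 for Mrps23, -0.095 to 0.12 for Mrpl19, -0.055 to 0.17 for Mrpl35, -0.024 to 0.16 for Mrps31, -0.19 to 0.024 for Mrps7, -0.056 to 0.056 for Mrps12, -0.24 to 0.33 for Mrps18b, -0.27 to 0.043 for Mrps30, -0.23 to 0.16 for Mrpl23, -0.15 to 0.11 for Mrpl44 and -0.23 to 0.066 for Mrpl45.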
